A study of Drosophila melanogaster with 10 samples.

Results

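The genes described here encode the cytosolic ribosomal proteins of Drosophila melanogaster. A gene was a member when its FlyBase symbol begins with RpL (large subunit) or RpS (small subunit), or is sta, whose product is the small-subunit protein known elsewhere as RpSA, and when its most counted transcript held at least 10 counts over all libraries. This gave 93 of the 15259 genes matched in the count table: 54 RpL genes, 38 RpS genes and sta. No gene with such a symbol fell under the limit. The member nearest to it was RpL37-2 with 11 counts, followed by RpL10Aa with 23 and RpS28a with 63. The members are spread over the genome, with 15 on X, 19 on 2L, 21 on 2R, 14 on 3L, 23 on 3R and 1 on chromosome 4. Coordinates are not given, because the counts and the annotation used for names come from different genome builds.

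A cytosolic ribosome is assembled in the nucleolus from ribosomal RNA and ribosomal proteins, each protein being needed in about the same number of copies. In flies most ribosomal proteins are encoded by 1 gene. Loss of a single copy of many ribosomal protein genes gives the slow-growing, thin-bristled Minute phenotype, and Minute cells are outcompeted by normal neighbours. The mRNAs are among the most abundant of growing cells, and introns of many of these genes carry small nucleolar RNAs (snoRNAs) that guide modification of ribosomal RNA.

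RNA was sequenced from 2 tissues of animals kept at 25 °C, each genotype being represented by 3 notum libraries and 2 libraries of flight muscle. Notum was cut from wing discs of wandering larvae of the third instar, and the sample names call it myoblasts. Flight muscle was dissected from pharate animals at about 96 h after puparium formation. Every animal, controls included, carried P{UAS-Dicer2.D}1, which strengthens RNA interference, and a Mef2-GAL4 driver, which switches on UAS transgenes in the muscle lineage. The group labelled WT is thus not an unmodified strain but carried P{UAS-mCherry-RNAi}attP2, and the group labelled Rbf-KD carried P{UAS-Rbf-RNAi[GD:10696]}, a hairpin against the retinoblastoma-family gene Rbf. The hairpins are transgenes of different origin, so the effect of the hairpin and that of the stock cannot be told apart. Nothing in the labels says whether replicates were separate dissections, and p-values therefore measure only the spread between these libraries.

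The libraries held between 42097044 and 73408366 gene counts. Rbf had 187 and 203 counts in WT muscle against 1210 and 1454 in the muscle libraries labelled Rbf-KD. In muscle the targeted gene thus went against its label. In notum it had 4346, 5179 and 4643 raw counts in WT against 4025, 4081 and 4336. Depth differed between these libraries, with 55401963 gene counts in the first WT library and 44950150 in the first labelled Rbf-KD. As a share of gene counts Rbf was lowest in that WT library, so the notum genotypes overlapped. The most abundant 1% of genes (153 genes) took between 29.6% and 31.7% of the counts in notum, 76.7% and 76.8% in WT muscle, and 63.6% and 64.2% in muscle labelled Rbf-KD. Levels in such libraries depend on the scaling. The trimmed mean of M-values (TMM) scales libraries by a trimmed mean of the log ratios of genes. Between the WT tissues the median of all genes still stood at -0.50 on the log2 scale. Scaling by the library total leaves each value as a share of all gene counts of its library. That total leaves out unmatched transcripts and all but the most counted transcript of a gene. Unmatched transcripts held 9.86% to 13.06% of all counts in notum and 16.64% to 20.34% in muscle. Results are given on the TMM scale as counts per 1000000 gene counts (CPM), with the library-total value where the direction or the call differs. Markers of 9 other tissues or cell types were also followed. In notum, the 7 disc epithelium markers summed to between 2453 and 2927 CPM of the library total and the 6 adult muscle precursor markers to between 358 and 524 CPM, so the notum libraries held RNA of cells outside the labelled muscle precursors. In bulk samples, fewer cells of a type and less RNA per cell cannot be told apart.

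Ribosomal protein mRNAs took a large part of the gene counts in notum and a much smaller part in muscle. Members held 12.2%, 9.79% and 10.5% of the gene counts in WT notum and 11.2%, 10.6% and 10.5% in notum labelled Rbf-KD. They held 2.65% and 2.76% in WT muscle and 5.32% and 5.97% in muscle labelled Rbf-KD. The notum genotypes overlapped, and both muscle libraries labelled Rbf-KD lay above both WT muscle libraries and below every notum library. The group means were 10.9% ± 1.26 and 10.7% ± 0.366 in notum (SD, n = 3 each) and 2.70% ± 0.0772 and 5.65% ± 0.462 in muscle (SD, n = 2 each). The large-subunit genes made up between 57.1% and 57.8% of the member counts in notum and between 58.6% and 59.5% in muscle. The tissues did not overlap, yet this difference was small beside the change of the total share. The 9 markers of flight muscle moved the other way in muscle, from between 181062 and 187886 CPM of the library total in WT to between 117893 and 124284 CPM in muscle labelled Rbf-KD. Their part in the difference of shares was not tested.

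**Figure D1:**
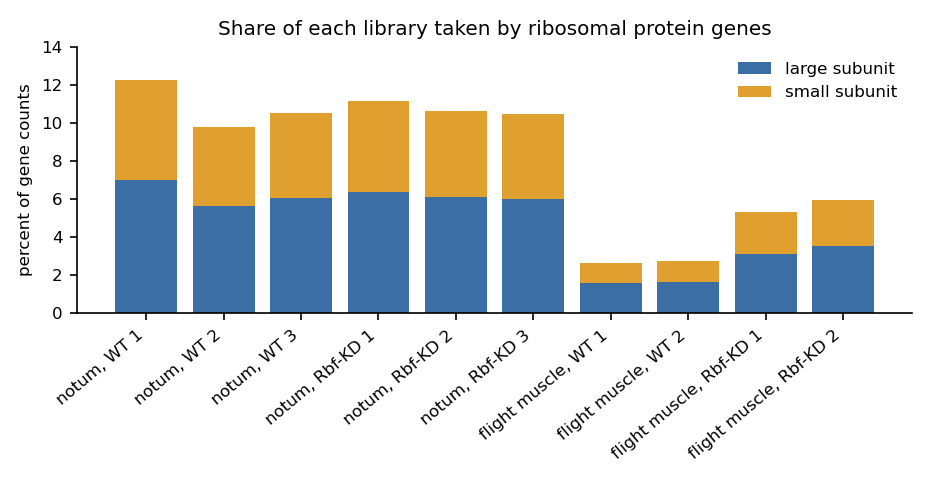
Share of all gene counts held by the 93 ribosomal protein genes, in percent, for each of the 10 libraries, as bars stacked from the large-subunit and small-subunit genes. The 6 notum libraries lie between 9.79% and 12.2%, WT muscle at 2.65% and 2.76%, and muscle labelled Rbf-KD at 5.32% and 5.97%.

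Levels of different members were compared per kilobase of transcript. Among the 82 members with a mean of at least 1000 counts that are not assembly-factor relatives (names ending in -like), the median on the TMM scale was 870 CPM per kb in WT notum, with a range from 116 to 4975. It was 850 in notum labelled Rbf-KD, 1561 in WT muscle and 1486 in muscle labelled Rbf-KD. As a share of all gene counts the order of the tissues turned, with medians of 1629, 1559, 432 and 849 CPM per kb. RpL41, which encodes the smallest ribosomal protein, had the highest level per kb in every group: 4975 ± 527 and 5061 ± 169 in notum (WT and labelled Rbf-KD, SD, n = 3) and 7997 ± 446 and 8184 ± 2051 in muscle (SD, n = 2). Next by the mean over libraries came RpS27A, which is made as a fusion with ubiquitin, at 1813, 1751, 2835 and 2582 CPM per kb in the same order, and RpL39, a small protein of the peptide exit tunnel, at 1670, 1690, 2808 and 2747. RpS27A exceeded RpL39 by less than 1 SD of either gene in WT notum and by about 1 SD in notum labelled Rbf-KD, and in muscle their order differed between the genotypes. Outside the paralog families the lowest by the mean over all 10 libraries were RpL23A, RpL4 and RpL28, at 271, 360 and 272 CPM per kb in WT notum, where RpL27 was also low (283). That mean pools the tissues, and in WT muscle the same 3 genes were at 853, 1265 and 971 CPM per kb, and RpL27 at 1558. The non-coding gene Uhg7 overlaps 11.4% of the RpL23A transcript on the same strand, so counts of RpL23A are uncertain. RpL34a, the lesser gene of a pair, had the lowest mean of the 82. Very short transcripts may be recovered unequally in library preparation, and that effect on these levels was not tested.

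**Figure D2:**
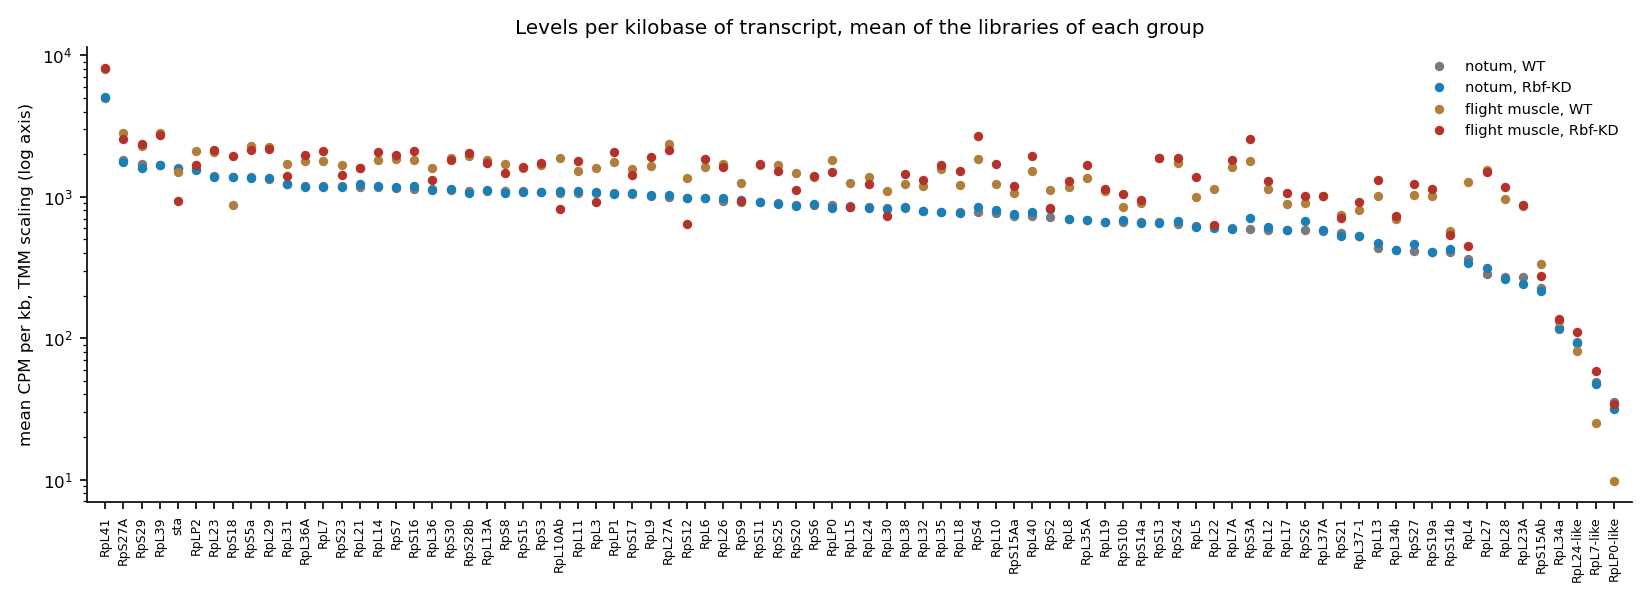
Level per kilobase of transcript of members with a mean of at least 1000 counts, in TMM-scaled CPM per kb on a log axis; each point is the mean of 1 gene over the libraries of a group, in order of the level in WT notum. Without the 3 assembly-factor relatives at the right end the group medians are 870 and 850 in notum and 1561 and 1486 in muscle, and RpL41 is highest in all 4 groups.

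The first comparison asked whether the genotype changed ribosomal protein mRNAs in notum, where the muscle precursors proliferate. No change passed the test. Of 89 members tested, 0 were called in either direction by the quasi-likelihood test of edgeR (adjusted p under 0.05), beside 0.0738% of all 12203 tested genes called higher and 0.0819% lower. By library total, and when libraries were scaled on the abundant members themselves, 0 were called as well, beside 0.0656% and 0.041% of all genes higher and 0.0819% lower on both scales. On the TMM and library-total scales 1 member, RpS19b, had an unadjusted p under 0.05, and on the scale of the members 2 had, RpS19b and RpS26. DESeq2 and limma-voom also called 0 members. The median log2 fold change was -0.04, beside -0.01 over all genes, and the abundant members lay within a narrow range from -0.19 to 0.21. In all, 2 members had every library labelled Rbf-KD above every WT library and 2 had every one below, beside 2.93% and 5.36% of all tested genes.

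The member with the lowest value in notum was RpS19b, a paralog of RpS19a that is known for its expression in the germline. WT libraries had 5.85, 4.56 and 4.91 CPM and those labelled Rbf-KD 3.58, 2.40 and 2.72 CPM. The groups did not overlap, yet with a log2 fold change of -0.82 (SE 0.22) the edgeR adjusted p was 0.606. Among members outside the paralog families, the highest values belonged to RpS3A, RpS26 and RpS2. RpS3A had 1622, 1618 and 1278 CPM in WT and 1724, 1774 and 1726 CPM in the other genotype, a log2 fold change of 0.21 (SE 0.12). RpS26 gave 0.19 and RpS2, whose product lines the mRNA entry channel, gave 0.14. The lowest were RpL23A (-0.19, SE 0.20), RpS29 (-0.12) and RpL4 (-0.12, SE 0.28), all with edgeR adjusted p-values of about 1. Leaving out 1 library turned the sign of several of these. RpL23A became 0.09 and RpL4 0.31 without the second WT library, RpL4 also became 0.03 without the first labelled Rbf-KD, RpS29 became 0.01 without the first WT library, and RpS2 became -0.01 without the third. RpL4, a protein of the exit tunnel, had 760, 1376 and 686 CPM in WT and 738, 825 and 1041 CPM in the other genotype. The second WT library stood apart in RpL4, and the same library was also highest among the WT libraries in RpL23A (463, 667 and 412 CPM).

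The genotype comparison in flight muscle gave calls in both directions on the TMM scale, and most members did not pass the test. Of 88 members tested, the libraries labelled Rbf-KD had 6 higher and 9 lower (edgeR, adjusted p under 0.05), where 19.5% of all tested genes were higher and 20.3% lower. DESeq2 called 7 higher and 17 lower, and the share of all genes it called is not given here. The median was -0.02, beside 0.10 over all genes. In 18 members both libraries labelled Rbf-KD lay above both WT libraries and in 21 both lay below, whereas 40% and 34.2% of all tested genes did so. Scaling by the library total moved the abundant members up by about the same amount, and gave a median of 1.09 for members and 1.20 for all genes. There 81 members were higher and 1, RpL4, was lower, beside 68.2% and 5.08% of all genes. The order of the abundant members among themselves hardly depends on this choice, and the median of members lay 0.11 under that of all genes on both scales.

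The lowest fold change was that of RpL4, which was at 691 and 749 CPM in WT muscle and at 254 and 240 CPM in muscle labelled Rbf-KD. Every library labelled Rbf-KD was far below WT, the log2 fold change was -1.55 (SE 0.13, adjusted p = 0.00119 by edgeR), and it stayed negative by library total at -0.43 (adjusted p = 0.017). RpL10Ab, a protein of the mobile stalk where transfer RNA leaves, fell from 527 and 611 CPM to 229 and 253 CPM, a log2 fold change of -1.24 (SE 0.14, adjusted p = 0.00247 by edgeR), and -0.13 by library total, which did not pass (adjusted p = 0.310). RpL3, which reaches the peptidyl transferase centre, was at 1068 and 1130 CPM in WT and at 571 and 641 CPM in muscle labelled Rbf-KD. Its TMM change of -0.86 (SE 0.13, adjusted p = 0.00554 by edgeR) became 0.25 by library total.

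RpL22, a protein that binds ribosomal RNA, was at 504 and 515 CPM in WT and at 252 and 287 CPM in the other genotype. This log2 fold change of -0.92 (SE 0.13, adjusted p = 0.00486 by edgeR) became 0.19 by library total, and 34.3% of the transcript overlaps the gene of a long non-coding RNA, so that its counts are uncertain. RpL30 (254 and 284 against 163 and 181 CPM) and RpL15 (521 and 507 against 317 and 353 CPM) were lower by smaller amounts. Their log2 fold changes were -0.65 (SE 0.14, adjusted p = 0.0162 by edgeR) and -0.62 (SE 0.13, adjusted p = 0.0152), and turned to 0.46 and 0.49 by library total, where both passed in the opposite direction (adjusted p = 0.0128 and 0.00949). RpL15 was called but lies outside the rule for named genes, and is named because its value was seen. Leaving out a library leaves 1 sample in an arm, and some calls were then lost while the fold change stayed about as large. RpL30 lost its call without the second WT library (adjusted p = 0.0661) or the first labelled Rbf-KD (0.0731), with log2 fold changes of -0.58 and -0.54. RpL15 lost it without the first WT library (0.0600), the second (0.0531) or the first labelled Rbf-KD (0.0815), with values between -0.65 and -0.51.

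In the small subunit, 3 genes were lower. RpS12, known in flies for its part in cell competition through the transcription factor Xrp1, was at 310 and 365 CPM in WT and at 153 and 156 CPM in muscle labelled Rbf-KD. On the log2 scale this is -1.13 (SE 0.14, adjusted p = 0.00304 by edgeR), and by library total there was hardly a difference (-0.02, adjusted p = 0.894). The gene sta was at 666 and 680 CPM in WT and at 391 and 414 CPM in the other genotype, a log2 fold change of -0.74 (SE 0.12, adjusted p = 0.00711 by edgeR) that became 0.37 by library total, where it passed in the opposite direction (adjusted p = 0.0185). RpS2 was at 506 and 561 against 354 and 414 CPM (-0.47, SE 0.14, edgeR adjusted p = 0.0488), and by library total it passed in the opposite direction (0.63, adjusted p = 0.00512). Its TMM call was lost without the filter (adjusted p = 0.0524) and in the fit of all 10 libraries (-0.41, adjusted p = 0.122). It was also lost on leaving out any of the 4 libraries, with adjusted p-values from 0.0603 to 0.170 and fold changes between -0.57 and -0.33.

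Among core ribosomal proteins, RpS18 and RpS4 were higher. RpS18, a protein of the small-subunit head, was at 217 and 214 CPM in WT and at 404 and 513 CPM in muscle labelled Rbf-KD, a log2 fold change of 1.09 (SE 0.16, adjusted p = 0.00503 by edgeR) on the TMM scale and 2.19 by library total. RpS4 was at 789 and 830 against 1038 and 1233 CPM (0.49, SE 0.14, adjusted p = 0.0414 by edgeR). The groups did not overlap for either gene. The call of RpS4 was lost without the first WT library (adjusted p = 0.152), the second WT library (0.113) or the second labelled Rbf-KD (0.113), with fold changes between 0.38 and 0.51. That of RpS18 held without any 1 library.

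**Figure D3:**
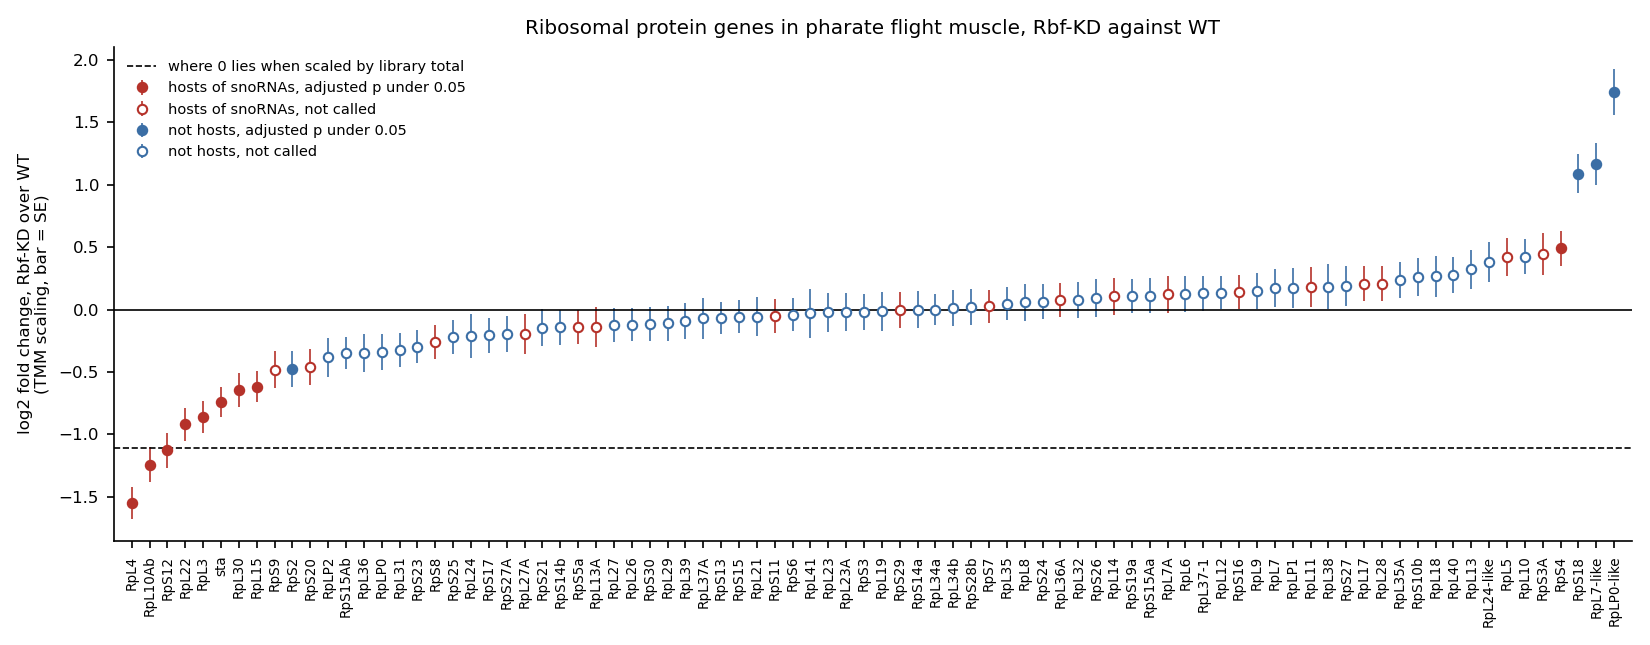
Log2 fold change between muscle labelled Rbf-KD and WT muscle for the abundant ribosomal protein genes, in order of value on the TMM scale, with bars of 1 SE; colours mark genes with snoRNAs in their introns, filled points were called (adjusted p under 0.05), and the dashed line is where 0 lies when libraries are scaled by their total. RpL4 (-1.55), RpL10Ab (-1.24) and RpS12 (-1.13) are at one end and RpS18 (1.09) at the other. By library total all values lie about 1.1 higher, and most genes below 0 turn sign. Of all 88 members tested, 48 are below 0 under TMM and 3 by library total. Among the called genes RpL3, RpL22, sta, RpL30, RpL15 and RpS2 turn.

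Among well-known members the following did not pass the edgeR test on the TMM scale. RpL32 (rp49), often used as a reference in quantitative PCR, was at 352 and 376 CPM in WT and at 348 and 420 CPM in muscle labelled Rbf-KD. The groups overlapped, with a log2 fold change of 0.08 (adjusted p = 0.697 by edgeR). RpS6, the substrate of S6 kinase, gave -0.04, and RpS3, at the mRNA entry channel, gave -0.02. RpL5 and RpL11, which join the ribosome together with the small RNA of the large subunit and in mammals also bind Mdm2, gave 0.42 (adjusted p = 0.0812) and 0.18. The ubiquitin fusions gave -0.20 for RpS27A and 0.28 for RpL40. In the stalk that recruits elongation factors, RpLP0 gave -0.34 (adjusted p = 0.112), RpLP1 0.17 and RpLP2 -0.38. By library total all 10 were called higher, as were 81 of all 88 members tested and 68.2% of all genes. RpL5 was also called in the fit of all 10 libraries (0.48, adjusted p = 0.0199), on the scale of the members (0.45, adjusted p = 0.0185) and without the first library labelled Rbf-KD (0.61, adjusted p = 0.0444), its value being between 0.27 and 0.61 on leaving out 1 library. RpLP0 was called lower by DESeq2 (-0.39, adjusted p = 0.0293).

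Most of the members called lower on the TMM scale had a snoRNA in an intron. The property was looked at after these values were seen, and is given as a description with no test. In the annotation 27 members host 70 snoRNAs. On the TMM scale 8 of the 27 hosts were lower in muscle labelled Rbf-KD and 1, RpS4, was higher, beside 20.3% of all genes lower and 19.5% higher. Of the 61 tested members without a snoRNA 1, RpS2, was lower and 5 were higher. By library total 1 host was lower and 22 were higher, and 0 of the other members were lower and 59 higher, beside 5.08% and 68.2% of all genes. Among the 82 abundant members, hosts made up 9 of the 10 lowest fold changes and 3 of the 10 highest, but 11 of the 20 lowest and 7 of the 20 highest. The hosts were spread wider (SD 0.54 on the log2 scale, n = 27) than the 55 abundant members without a snoRNA (SD 0.25). Their median was -0.14 against -0.01 in those 55. Against all 61 tested members without a snoRNA the gap of medians was -0.14 under both TMM and library-total scaling. Hosts also differed in structure, with a median of 4 exons against 3 and a median span of 1792 against 1045 bases. Across the 82 members, span, transcript length, exon number and level per kb were each weakly correlated with the fold change in muscle (Pearson r from -0.10 to 0.09). These points share libraries.

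None of the hosted snoRNAs was called lower. Of the 63 tested, 23 were higher in muscle labelled Rbf-KD and 0 lower on the TMM scale, with a median log2 fold change of 1.05, and 54 were higher and 0 lower by library total (median 2.16). Of all tested genes 19.5% were higher and 20.3% lower under TMM, and 68.2% and 5.08% by library total. Summed over all 70, they stood at 309 and 449 CPM of the library total in WT muscle, at 1073 and 1012 in muscle labelled Rbf-KD, and between 3831 and 5927 in notum. The muscle groups did not overlap, and every notum library was above every muscle library. Library preparation recovers such short RNAs poorly, and how that bears on these counts was not tested.

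The second question the design allows is how the tissues differ. In WT animals nearly every member stood higher in muscle on the TMM scale and lower as a share of gene counts. Of 91 members tested in a fit of all 10 libraries, 81 were higher in muscle and 7 lower (edgeR), beside 33.3% and 43.4% of all genes. By library total 0 were higher and 88 lower, beside 10.9% and 76.3% of all genes. The median was 0.66 for members and -0.50 for all genes under TMM and -2.09 and -3.24 by library total, so members lay 1.16 above the median gene under TMM and about as far above it by library total. Scaling on the abundant members themselves asks how they moved against each other, and there 20 were higher and 18 lower, beside 24.6% and 53.8% of all genes.

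Among members outside the paralog families, RpL27 stood highest in muscle on the TMM scale, whereas by library total it did not pass. It was at 266, 364 and 208 CPM in WT notum and at 1536 and 1540 CPM in WT muscle, or 283 ± 79.7 and 1558 ± 2.87 CPM per kb, a log2 fold change of 2.46 (SE 0.20, adjusted p = 4.62e-06 by edgeR) that was -0.28 by library total (adjusted p = 0.166). The counted transcript overlaps Idh3g over 16.0% of its length, and Idh3g had between 3820 and 5174 counts in notum and between 63023 and 78582 in muscle. The shorter RpL27 transcript of 544 bases gave 1.89. RpL28 (272 ± 50.4 against 971 ± 29.0 CPM per kb) and RpL4 (360 ± 150 against 1265 ± 37.1) followed, at 1.84 and 1.81 on the TMM scale and -0.92 each by library total. RpL4 was spread widely in notum, where the second WT library was at 746 CPM and the others at 394 and 373.

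At the other end, RpS18 was lower in WT muscle, at 915, 752 and 844 CPM in WT notum against 544 and 516 CPM. It was the only abundant core member called lower on the TMM scale (-0.66, SE 0.13, edgeR adjusted p = 0.00158; -3.42 by library total). The gene sta was at 1850, 1664 and 1815 CPM in WT notum and at 1671 and 1641 CPM in WT muscle, a change of -0.10 (SE 0.09, adjusted p = 0.334 by edgeR) on the TMM scale and -2.86 by library total. RpL30 gave 0.39 (adjusted p = 0.0120 by edgeR), which became -2.37 by library total and -0.31 on the scale of the members, and whose TMM call was lost without the filter (0.0538), without the second or the third WT notum library (adjusted p = 0.0628 and 0.0637) or the second WT muscle library (0.0894), where it was between 0.30 and 0.38. RpL32 gave 0.59 on the TMM scale, -2.16 by library total and -0.11 on the scale of the members.

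In the genotype labelled Rbf-KD, 69 members were higher and 6 lower in muscle under TMM (edgeR), beside 34.9% and 39.2% of all genes. By library total 2 were higher and 78 lower, beside 16.1% and 68.5%, and on the scale of the abundant members 22 were higher and 27 lower, beside 24.3% and 53.1%. The median of members was 0.69 under TMM and -0.99 by library total, beside -0.23 and -1.90 for all genes. RpL27 (2.25), RpL28 (2.16) and RpL23A, which sits near the exit of the peptide tunnel (1.85), were the highest outside the paralog families. Their library-total values were 0.57, 0.48 and 0.18, of which that of RpL23A did not pass. The overlap of RpL23A with Uhg7 leaves its counts uncertain. Lower in muscle were sta (-0.75, SE 0.09, adjusted p = 8.68e-05 by edgeR), RpS12 (-0.61, adjusted p = 0.00103) and RpL10Ab (-0.41, adjusted p = 0.00616). RpL3 gave -0.24 (adjusted p = 0.0517 by edgeR). It was called lower by DESeq2 (adjusted p = 0.0145), by limma-voom (0.0435), without the filter (0.0258) and in a fit of the libraries of that genotype alone (0.0499).

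**Figure D4:**
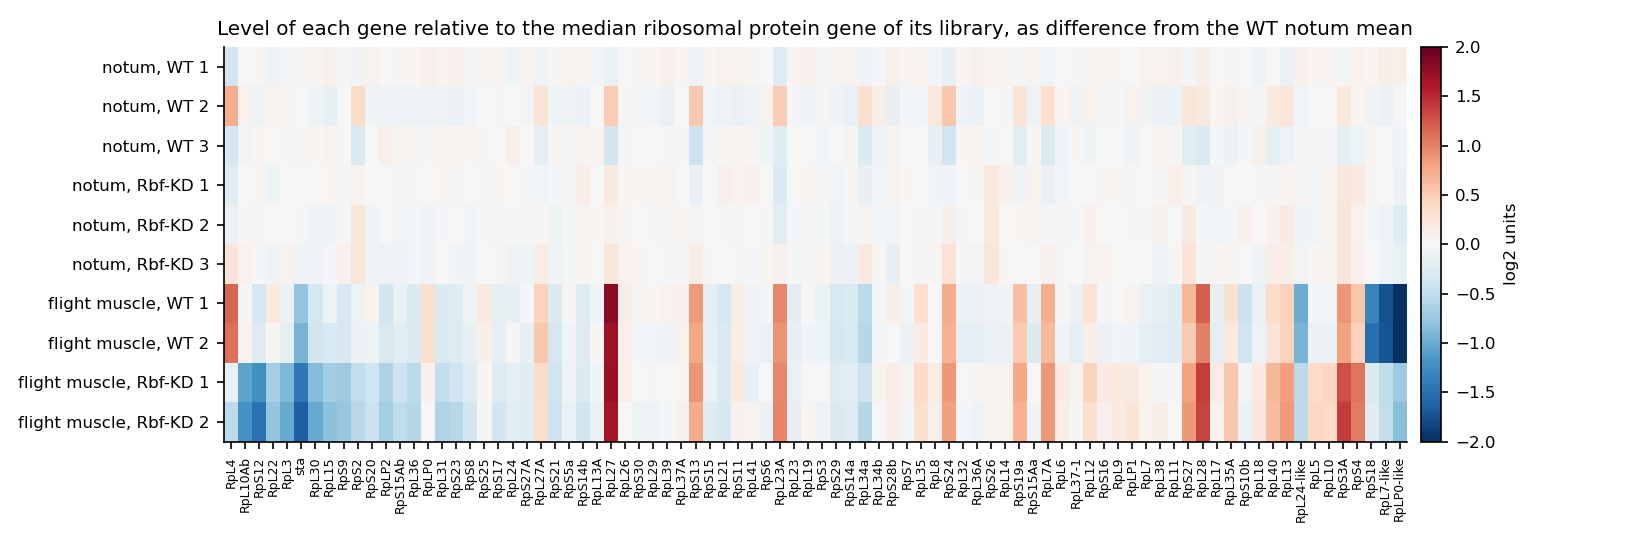
Log2 level of abundant ribosomal protein genes relative to the median member of the same library and to the gene's own mean in WT notum, for all 10 libraries, with the colour scale ending at -2 and 2. The values do not depend on library scaling; RpL27, RpL28 and RpL23A stand high in muscle, RpL4 is high in WT muscle and in the second WT notum library, and RpL10Ab, RpS12 and RpL3 are low in the 2 muscle libraries labelled Rbf-KD.

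The effect of genotype differed between the tissues for 12 members on the TMM scale. The difference of effects (muscle minus notum) was positive for 5 and negative for 7 of 91 members tested, beside 17.2% and 13.1% of all genes, and by library total it was positive for 80 and negative for 0, beside 52.1% and 2.72%. RpL10Ab (-1.22, SE 0.15, adjusted p = 0.000325 by edgeR) and RpS12 (-1.06, SE 0.16, adjusted p = 0.00101) were negative on the TMM scale, and by library total RpL10Ab was -0.14 and RpS12 0.02. RpL3 (-0.83), RpL22 (-0.82), sta (-0.65) and RpL30 (-0.55) were called on the TMM scale and positive by library total (0.24, 0.26, 0.43 and 0.53), where sta (adjusted p = 0.0486) and RpL30 (0.0422) passed in the opposite direction and RpL3 and RpL22 did not pass. RpS18 was positive on both scales (1.15, SE 0.19, edgeR adjusted p = 0.00163, and 2.23 by library total).

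Some of these calls were lost on leaving out a library, with differences of similar size. RpL4 (-1.40, SE 0.41, adjusted p = 0.0325 by edgeR) lost its call on leaving out the third notum library labelled Rbf-KD (0.0546) or any muscle library (0.0781 to 0.0982), where the difference was between -1.42 and -1.29. RpL30 (adjusted p = 0.0334) lost it in 8 of 10 such fits (0.0610 to 0.127, differences from -0.60 to -0.45), and also without the filter (0.0563) and with the replicate number as a block (adjusted p = 0.0783 by edgeR). RpL5, the highest member outside the called ones, gave 0.50 (adjusted p = 0.0606). It was called by library total (1.57, adjusted p = 8.97e-05), on the scale of the members (0.49, adjusted p = 0.0212) and without the first muscle library labelled Rbf-KD (0.67, adjusted p = 0.0196).

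Of the 93 members, 27 belong to 13 families of paralogs, and in most a single gene supplied nearly all reads. The most even pair was RpS14, whose copies lie side by side on X. RpS14b held between 35.9% and 40.5% of the pair per kb in the 10 libraries. Paralogs of near-identical sequence can exchange reads, and how shared reads were counted is not given in the sources used here, so the split within the RpS14, RpS15A and RpL34 pairs is uncertain. RpS15Ab held 23.3%, 23.6% and 23.5% of its pair in WT notum and 22.1%, 22.1% and 22.4% in notum labelled Rbf-KD, and 23.9% and 24.1% in WT muscle against 18.9% and 18.5% in muscle labelled Rbf-KD. The lower share in the last group did not overlap with any other, while neither RpS15Ab (log2 fold change -0.35, adjusted p = 0.0875 by edgeR) nor RpS15Aa (0.11) passed the edgeR test on the TMM scale in muscle. DESeq2 called RpS15Ab lower (-0.39, adjusted p = 0.0197), and by library total both were called higher (0.76, adjusted p = 0.00287, and 1.22, adjusted p = 0.000849). RpL34a held between 19.4% and 24.1% of its pair in notum and between 15.5% and 16.4% in muscle, with no overlap of the tissues.

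Several paralogs, some of them known for germline expression, were read at low levels. RpS5b had 641 and 620 counts summed over the WT and Rbf-KD labelled notum libraries and 10 and 28 over those of muscle. RpS19b had 734 and 416 counts in notum and 4 and 3 in muscle. RpS28-like had 82 and 79 in notum and 1 and 3 in muscle, a ratio between the muscle genotypes of 1.27 (95% exact interval 0.102 to 66.9, counting error only). These 3 genes were low in muscle of both genotypes. RpS10a and RpS28a, also at few counts, went the other way. Between the WT tissues RpS10a gave a ratio of muscle to notum of 12.4 on the TMM scale and 1.83 by library total. By library total edgeR called neither gene higher. The 9 germline markers that were matched were lower in muscle, as were RpS5b, RpS19b and RpS28-like. The markers summed to between 86.7 and 108 CPM of the library total in notum and between 1.70 and 7.17 in muscle. In muscle bam, osk and zpg were at 0 in WT, and zpg in the libraries labelled Rbf-KD. The part of germline cells in the levels of these paralogs was not tested.

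RpL22-like, the paralog of RpL22, had 0 counts in both WT muscle libraries and 22 and 23 counts in the muscle libraries labelled Rbf-KD. Set against 3 counts over the WT group, it was at least 6.37-fold higher on the TMM scale and at least 13.1-fold by library total, and the lower limits of the 95% exact intervals of these ratios were 4.97 and 10.2 (counting error only). The edgeR adjusted p of 0.0159 passed, but the call was lost on leaving out any of the 4 libraries (0.0602 to 0.123), which leaves 1 sample in an arm. RpS28a had 7 and 8 counts in notum and 15 and 33 in muscle, and RpS10a had 30 and 41 in notum and 43 and 104 in muscle. Between the WT tissues these counts give a ratio of muscle to notum of 18.5 for RpS28a on the TMM scale (95% exact interval 7.10 to 53.6) and 2.73 by library total (1.05 to 7.91). RpL10Aa had 0 and 21 counts in notum, 19 of them in 1 library, and 0 and 2 in muscle. RpL37-2 had 0 and 5 in notum and 0 and 6 in muscle.

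**Figure D5:**
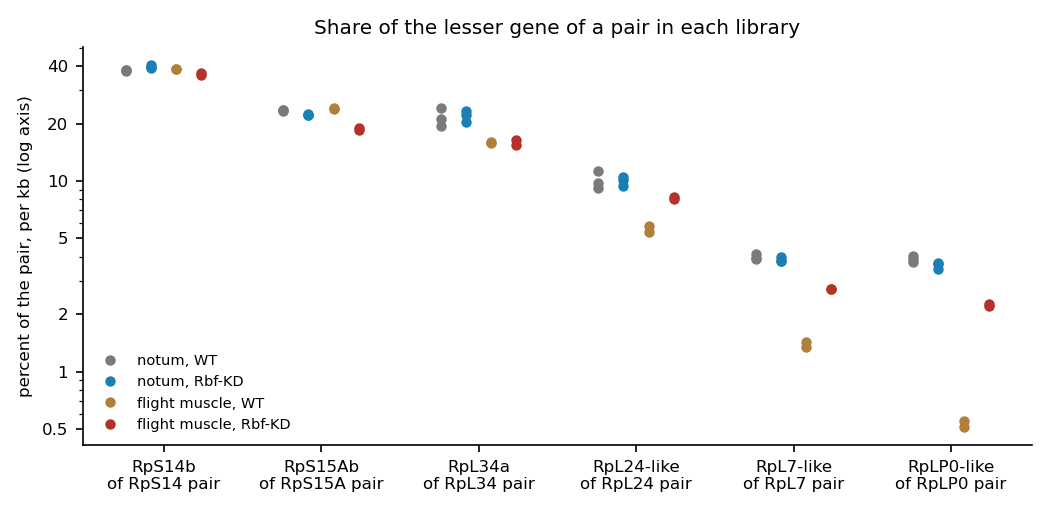
Share of the less abundant paralog in its family, in percent of the family's level per kilobase of transcript, on a log axis, for 6 families; points are libraries and colours are groups. RpS15Ab is at 18.9% and 18.5% only in muscle labelled Rbf-KD, and RpLP0-like, RpL7-like and RpL24-like are lower in WT muscle than in the other 3 groups.

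Apart from the ribosome itself, 3 members with names ending in -like are relatives of yeast assembly factors: RpLP0-like of Mrt4, RpL7-like of Rlp7 and RpL24-like of Rlp24. In WT muscle their share of the pair was lowest of all groups. RpLP0-like held 0.513% and 0.553% of its pair there, between 3.46% and 4.02% in notum, and 2.26% and 2.20% in muscle labelled Rbf-KD. In CPM it was at 3.39 and 4.16 in WT muscle and at 11.9 and 13.3 in muscle labelled Rbf-KD, a log2 fold change of 1.74 (SE 0.18, adjusted p = 0.00188 by edgeR) on the TMM scale and 2.85 by library total. RpL7-like, at 8.90 and 10.1 against 19.1 and 23.6 CPM, gave 1.17 (SE 0.17, adjusted p = 0.00483) and 2.27. RpL7-like lies wholly within CG34164, and which of the overlapping genes its reads belong to is uncertain. RpL24-like, at 23.5 and 27.6 against 29.7 and 36.7 CPM, gave 0.38 (adjusted p = 0.116) under TMM, and was called higher in the fit of all 10 libraries (0.44, adjusted p = 0.0418) and by library total (1.49, adjusted p = 0.00102). Between WT tissues, RpLP0-like (-1.85) and RpL7-like (-0.98) were lower in muscle, while the partners RpLP0 (1.07) and RpL7 (0.59) were higher on the TMM scale and lower by library total. RpL24-like was called lower there by library total (-2.98) and on the scale of the members (-0.92, adjusted p = 3.70e-05), but not under TMM.

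Ribosome assembly was also followed through 15 nucleolar genes. By edgeR all 15 were higher in muscle labelled Rbf-KD on both scales, beside 19.5% of all genes under TMM and 68.2% by library total. Their median was 2.67 under TMM and 3.77 by library total. In notum 0 of them passed, where 0.0738% of all genes were higher and 0.0819% lower under TMM. They summed to between 93.8 and 95.3 CPM of the library total in WT muscle, between 726 and 847 CPM in muscle labelled Rbf-KD, and between 2606 and 3126 CPM in notum. The most abundant of them were Non1, Nlp, Nop60B and Nopp140. Nop60B, the pseudouridine synthase that works with snoRNAs, had 131 and 209 counts in WT muscle and 2865 and 4291 in muscle labelled Rbf-KD, a TMM change of 3.07 (SE 0.31, adjusted p = 0.00232 by edgeR). Nopp140, a nucleolar phosphoprotein, had 231 and 289 against 2273 and 3572 counts. Nlp, a nucleoplasmin-like chaperone, gave 1.57 and Non1, a nucleolar GTPase, gave 1.02, the smallest change of the 15.

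Factors that act with the ribosome were compared in muscle too. Of 27 initiation factors 6 were higher and 5 lower on the TMM scale, near the 19.5% and 20.3% of all genes, and 25 were higher and 0 lower by library total, beside 68.2% and 5.08%. eIF6, which keeps the free large subunit apart, gave 1.84, and eIF3b gave 1.07. The helicase eIF4A gave -0.91 on the TMM scale and 0.20 by library total. By library total 7 of 9 elongation and termination factors and 3 of 3 ribosome-associated genes were higher and 0 lower. Of the 9 factors 1 was higher, eEF1alpha1 (0.92), and 3 were lower on the TMM scale, eEF1alpha2 (-0.79), eEF1delta (-0.79) and eRF1 (-0.84), which were positive by library total (0.31, 0.32 and 0.27). eEF2 gave 0.35 (adjusted p = 0.0830 by edgeR). Of the 3 ribosome-associated genes bic, the beta subunit of the nascent-chain complex, was higher on the TMM scale (0.67), and Rack1, a scaffold on the small subunit, was lower (-0.75; 0.36 by library total).

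Of 11 regulators, 4 were higher in muscle labelled Rbf-KD and 2 lower on the TMM scale, and 8 were higher and 0 lower by library total, where the shares of all genes were 19.5% and 20.3% and then 68.2% and 5.08%. Myc, the growth regulator that raises ribosome production, was at 455 and 415 counts in WT and at 3860 and 5622 in the libraries labelled Rbf-KD (log2 fold change 2.14, SE 0.13, adjusted p = 0.000770 by edgeR). Xrp1, which acts in cells short of a ribosomal protein, was at 4905 and 2518 against 21815 and 33796 counts (1.61, SE 0.31, adjusted p = 0.0162). Tif-IA, needed for RNA polymerase I, gave 1.08 and Dref 0.76. Mnt, a partner of Max that opposes Myc, gave -1.01 and S6k -0.82, with library-total values of 0.10 and 0.29. The others were Trf2 (0.35), mTor (0.34), M1BP (-0.41), Max (-0.30) and Thor (-1.73, with 1286 and 58 counts in WT), none of which passed. In notum 0 of the 11 passed, beside 0.0738% of all genes higher and 0.0819% lower under TMM.

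Markers of other cells changed in the same libraries, to be read against 19.5% of all genes higher and 20.3% lower on the TMM scale and 68.2% and 5.08% by library total. Of 8 fat body markers 7 were higher in muscle labelled Rbf-KD and 1 lower on the TMM scale, and they summed to between 202 and 243 CPM of the library total in WT muscle and between 4252 and 4856 CPM in muscle labelled Rbf-KD. Of 7 hemocyte markers 2 were higher and 0 lower (208 to 210 against 787 to 789 CPM). Of 6 tracheal markers 4 were lower and 0 higher, and of 9 flight muscle markers 8 were lower and 0 higher. No marker of neurons (5 tested) or glia (3 tested) was called, of 7 disc epithelium markers 1 was lower, of 5 muscle precursor markers 2 were higher and 2 lower, and of 6 germline markers 1 was higher, all on the TMM scale. By library total 7 fat body, 5 neuron, 3 glia, 7 hemocyte, 5 germline, 4 disc epithelium and 4 muscle precursor markers were higher, while of the flight muscle markers 5 were lower and 1 higher and of the tracheal markers 1 was lower. How much of the changes of ribosomal protein genes and of the nucleolar list comes with these cells was not tested.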

How the data were processed

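RNA was measured in 10 libraries of 4 groups. Per the labels' protocols, libraries came from total RNA by Ribo-Zero depletion and a TruSeq Stranded kit. The values deposited by the authors are raw counts per transcript, not normalized. Build BDGP5 is named in the submitters' processing notes, as are DESeq2 1.14.1, featureCounts, Subread, Bowtie2 2.3.2, TopHat2 2.1.1, FastQC and bcl2fastq 2.17.1.14; the strand setting and the treatment of shared reads are not given in the sources used here. Where genes overlap, their reads are therefore uncertain: 25 members overlap another gene, 15 of them over at least 5% of the transcript.

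Identifiers were matched to the BDGP6 annotation (27011 of 29173 transcripts, 15259 genes); unmatched transcripts held between 9.86% and 20.34% of a library and stayed out. The most counted transcript stood for a gene. Counts were tested in R 4.3.3 with edgeR 4.0.16: filterByExpr (minimum count 10, minimum total 15), TMM, robust quasi-likelihood F test, Benjamini-Hochberg adjustment over all genes tested, adjusted p under 0.05. Genotype was tested within each tissue; tissues and the difference of effects were tested in 1 fit of the 4 groups over all 10 libraries. CPM in the genotype comparisons are scaled within that tissue, all other TMM values over 10 libraries. A count of 0 allows up to 3 counts, and such limits and the 95% intervals cover counting error only. Code was tested on simulated data. Figures and tables were made with Python 3.11.15, pandas 2.3.3, numpy 2.4.6 and matplotlib 3.10.9.

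The members, the lists and the tests were chosen with earlier results of these data known. Named are paralogs, the 3 highest and 3 lowest fold changes of each comparison and levels per kb outside the families, sta, RpS3, RpS6, RpL5, RpL11, RpL32, RpLP0, RpS27A and RpL40, at most 4 abundant genes of other lists and all tested regulators; 1 gene named by this rule is not reported here; other genes are named because their values were seen, as are eIF6, eIF3b and the remaining called elongation factors. Alternatives were library-total scaling, DESeq2 size factors, DESeq2 1.42.0, limma-voom (limma 3.58.1), no filter, summed transcripts, a replicate block, single libraries left out, the fit of all libraries or of 1 genotype and, chosen after seeing the data, scaling on the 85 abundant members, the short RpL27 transcript and a crossed block. Same-numbered notum libraries deviated together (r = 0.65, 0.58 and 0.23 over 12203 genes), although the second WT library and the third labelled Rbf-KD also gave r = 0.58. The main notum test held no pairing. With the replicate number as a block, edgeR called 0 notum members in either direction, with a median of -0.03.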

Additional observations from a re-analysis of the deposited data

Results flagged for a closer look

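The effect of genotype in flight muscle differed from that in notum for the members given here by the test of the difference in the fit of all 10 libraries (edgeR, adjusted p under 0.05), beside 17.2% of all genes with a positive and 13.1% with a negative difference. On the TMM scale the difference in log2 fold change was -1.40 for RpL4, -1.22 for RpL10Ab, -1.06 for RpS12, -0.83 for RpL3, -0.82 for RpL22, -0.65 for sta and -0.55 for RpL30, of which all but RpL4 (-0.34) and RpL10Ab (-0.14) were positive by library total. It was 1.15 for RpS18, 1.29 for RpL7-like, 1.97 for RpLP0-like and 8.12 for RpL22-like. The last value is fitted against a group in which all counts are 0 and depends on the prior count. Counts of RpL22 and RpL7-like are uncertain, because another gene overlaps 34.3% of the RpL22 transcript and 100% of that of RpL7-like. The flight muscle libraries labelled Rbf-KD also held more counts of Rbf, of fat body markers and of nucleolar genes, and less of flight muscle markers, than WT muscle, and the part of these in the differences was not tested.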

How the results depend on the processing

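Scaling decided most counts. By library total, 81 members were higher and 1 lower between genotypes in muscle (median 1.09), 0 and 88 between WT tissues (-2.09), 2 and 78 between tissues labelled Rbf-KD (-0.99), and 80 and 0 for the difference of effects (1.12). Of all genes, 68.2% and 5.08%, 10.9% and 76.3%, 16.1% and 68.5%, and 52.1% and 2.72% were called in the same order. Scaled on the members, 9 were higher and 11 lower between genotypes in muscle, beside 18.8% and 17.5% of all genes. Between WT tissues the counts were 20 and 18 (median -0.044), and between tissues labelled Rbf-KD 22 and 27 (-0.025). For the difference 8 were positive and 9 negative. The shares of all genes in these 3 were 24.6% and 53.8%, 24.3% and 53.1%, and 14.7% and 11.1%. DESeq2 called 17 lower in muscle and 11 negative differences, the fit of all libraries 10 higher in muscle, and DESeq2 size factors and DESeq2 gave a median of 0.81 between WT tissues. For these settings, the replicate blocks and the fits without 1 library, shares of all genes are not given here. Without both replicate 1 libraries the notum median was 0.082.

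By library total 3 members were below 0 in muscle, against 48 under TMM. Genes whose sign turned include RpL3 (0.25), RpL22 (0.19), sta (0.37), RpL30 (0.46), RpL15 (0.49), RpS2 (0.63), RpL27 (0.98), RpS3 (1.09), RpS6 (1.07), RpS27A (0.91), RpLP0 (0.77) and RpS15Ab (0.76) in muscle, RpL30 (-2.37), RpL4 (-0.92), RpL28 (-0.92), RpL27 (-0.28) and RpL32 (-2.16) between WT tissues, and RpS12 (0.019), RpL3 (0.24), RpL22 (0.26), sta (0.43) and RpL30 (0.53) in the difference. Scaled on the members, RpL30 (-0.31) and RpL32 (-0.11) turned between WT tissues. These follow from the scaling itself; for the DESeq2 counts and the fit of all libraries the cause was not tested.

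Leaving out 1 library gave 0 calls each way in notum (median -0.059 to 0.083), 3 to 7 higher and 6 to 8 lower in muscle (-0.11 to 0.15), 68 to 81 and 6 to 7 between WT tissues (0.60 to 0.78), 60 to 70 and 6 to 7 between tissues labelled Rbf-KD (0.53 to 0.80), and 4 to 9 and 5 to 10 for the difference (-0.08 to 0.17). With the replicate block 5 members were higher and 9 lower in muscle, RpS4 (adjusted p = 0.0519) and RpS2 (0.0505) lost their calls there, and RpL30 (0.0783) lost its call in the difference. Same-numbered muscle libraries deviated in opposite ways (r = -0.23), and the crossed pairing gave 4 higher and 8 lower. With 2 muscle libraries per genotype, small differences between members are not detectable, and paralogs at a few counts limit any statement to the intervals given.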
